A study of Homo sapiens with 8 samples.

Results

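Transcripts of 10 genes that restrain the growth kinase complex mTORC1 were followed in CCRF-CEM-C7-14, a human line of acute lymphoblastic leukaemia of T cells, before and during treatment with the synthetic glucocorticoid dexamethasone. The genes were DDIT4, CASTOR1, SESN1, SESN2, SESN3, TSC1, TSC2, DEPTOR, DEPDC5 and NPRL2. Every probe set whose only platform gene symbol was one of these was taken, which gave 21 probe sets of the 54613 that are no controls. The list was chosen partly from earlier results on these arrays, and which differences between times were used is not recorded, so all of them count as used. They and the calls made on them are given as a description without p-values.

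Total RNA was hybridised to 8 single-colour arrays: 3 of untreated cells (0 h), 3 of cells given 1 µM dexamethasone for 2 h and 2 of cells given it for 10 h. All groups share the 1 cell line and a medium whose serum was charcoal-stripped to lower its steroids. The arrays of a time are labelled biological replicates, and the labels used here do not say how separate the cultures were. Vehicle-treated cells of the later times were not analysed here, so hormone and time in stripped medium cannot be told apart. The number of arrays limits the precision of every value.

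mTORC1 is a protein kinase complex on the lysosome that switches on protein, lipid and nucleotide synthesis and holds back autophagy when growth factors and amino acids are plentiful. Growth factor signals reach it by relieving the TSC1-TSC2 complex, which turns off the small GTPase RHEB. Amino acid signals reach it through the Rag GTPases, which the GATOR1 complex turns off. In lymphocytes the kinase drives growth and proliferation after antigen or cytokine signals, and it is often active in T-cell leukaemia.

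DDIT4, also called REDD1, is a stress-induced protein that promotes the action of TSC1-TSC2. CASTOR1 is a cytosolic arginine sensor that, without arginine, binds and inhibits GATOR2, a complex that opposes GATOR1. The sestrins act on GATOR2 too, SESN2 as a leucine sensor. DEPDC5 and NPRL2 are subunits of GATOR1, and DEPTOR binds and inhibits mTOR itself.

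The 250 bases before the transcription start of DDIT4 and CASTOR1 are shown because these were the 2 genes called after 10 h. They come from RefSeq, build GRCh38.p14, read 5′ to 3′ on the strand of the gene. DDIT4 lies at chr10:72273674-72273923 on the plus strand and CASTOR1 at chr22:30289506-30289755 on the minus strand. Capitals mark the hypoxia response element core ACGTG and the CCAAT box, each on either strand.
DDIT4: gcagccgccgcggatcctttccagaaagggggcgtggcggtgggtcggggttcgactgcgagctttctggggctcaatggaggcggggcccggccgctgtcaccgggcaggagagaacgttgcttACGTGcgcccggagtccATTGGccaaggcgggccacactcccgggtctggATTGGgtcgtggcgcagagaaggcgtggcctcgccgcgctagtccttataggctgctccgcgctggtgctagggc
CASTOR1: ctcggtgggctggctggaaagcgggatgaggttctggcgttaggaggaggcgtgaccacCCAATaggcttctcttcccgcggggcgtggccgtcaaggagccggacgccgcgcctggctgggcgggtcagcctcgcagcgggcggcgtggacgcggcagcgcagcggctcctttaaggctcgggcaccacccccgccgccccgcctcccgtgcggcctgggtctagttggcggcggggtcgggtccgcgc

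DDIT4 held ACGTG from 125 to 121 bases before its start, a motif found in 18.5% of the 35116 RefSeq promoters of this length. It held CCAAT boxes from 108 to 104 and from 75 to 71 bases before the start, and CASTOR1 held 1 from 191 to 187 bases before its start. A CCAAT box was found in 32.0% of promoters. Neither window held the palindromic glucocorticoid receptor element, which 1 of the 35116 promoters held, or the half-site AGAACA, which 12.4% held. Neither held the forkhead element GTAAACA (2.98% of promoters), the ATF4 response element TGATGNAA (3.14%), the E-box CACGTG (6.34%), which contains ACGTG, or the TATA box TATAAA (10.7%). These matches describe letters in 250 bases, and more distant sequence was not searched.

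DDIT4 and CASTOR1 were the 2 genes of the list called higher after 10 h, by 2.30-fold for DDIT4 and by 2.72-fold and 2.31-fold on the 2 CASTOR1 probe sets. SESN1 was 1.80-fold and SESN2 1.32-fold and 1.38-fold, and none of these 3 probe sets was called. Their arrays of 10 h all lay above those of 0 h, as in 5.92% of all probe sets. The TSC, GATOR1 and DEPTOR transcripts and SESN3 were not called at any time. In limma, with Benjamini-Hochberg adjustment over all 54613 probe sets and a threshold of 0.05, 3 of 21 probe sets were called at 10 h, all higher, where 0.245% of all probe sets were called higher and 0.251% in either direction. None was called at 2 h, where 0.00916% of all probe sets were, or between 10 h and 2 h, where 0.108% were. At an unadjusted p below 0.05 the counts were 2 of 21 at 2 h, 4 of 21 at 10 h and 3 of 21 between 10 h and 2 h, with 1.1%, 2.68% and 2.53% of all probe sets.

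**Figure D1:**
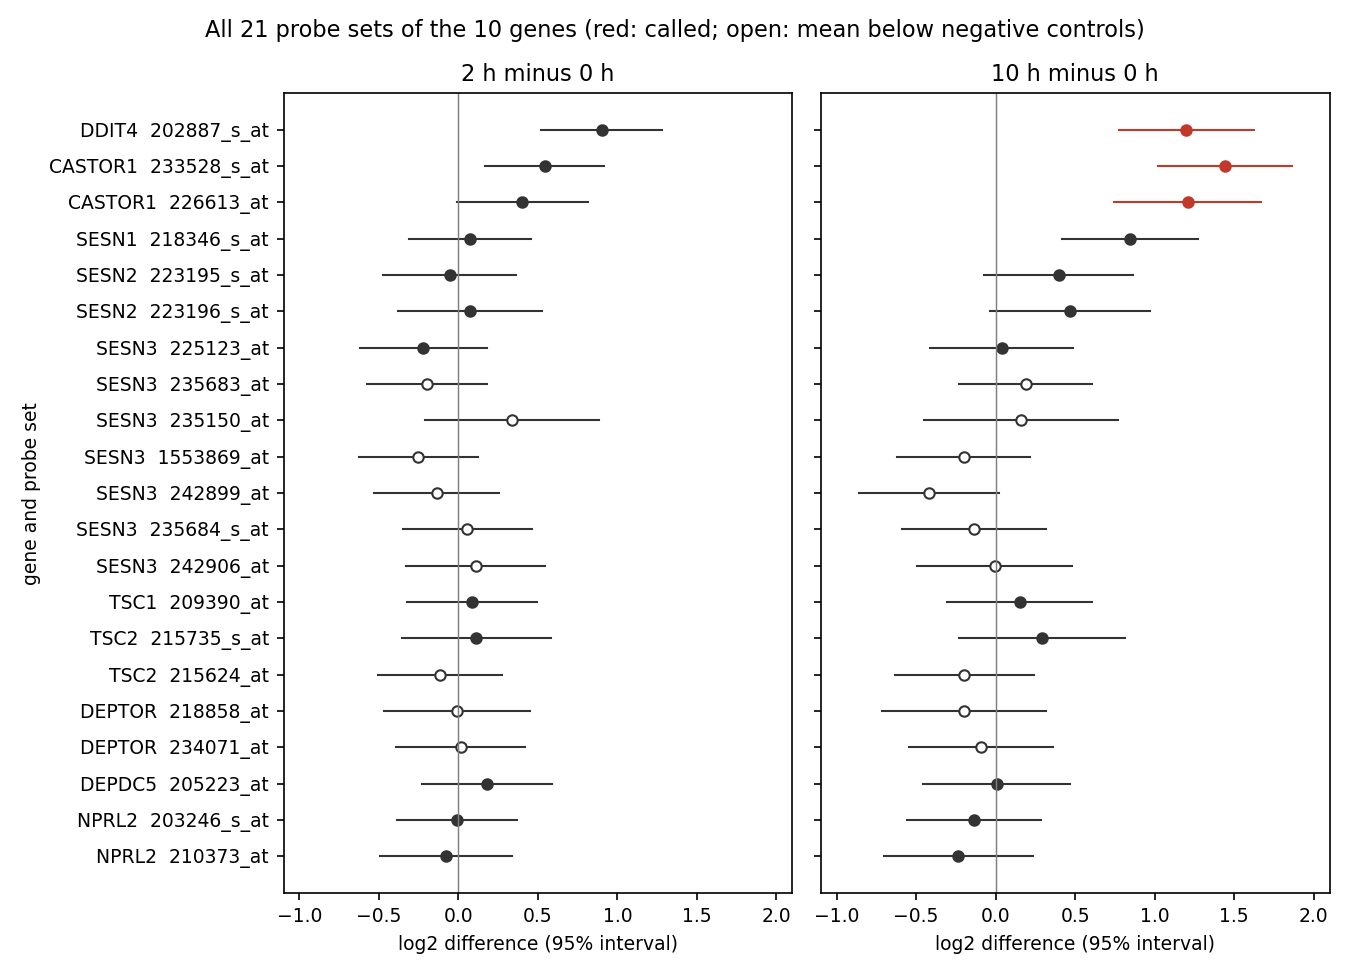
Log2 difference (x axis) of each of the 21 probe sets (rows) at 2 h and at 10 h, both minus 0 h, with 95% intervals from limma; red marks called probe sets and open points a mean over 8 arrays below the highest negative control value of 4.73. The 3 red points are DDIT4 and both CASTOR1 probe sets at 10 h, between 1.20 and 1.44.

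The single DDIT4 probe set, 202887_s_at, had log2 expression of 10.22, 9.78 and 10.18 at 0 h, 11.04, 10.90 and 10.94 at 2 h, and 11.20 and 11.32 at 10 h. No array of one time lay within the range of another time, and the step between 0 h and 2 h was the wider one. How many of all probe sets had such an order over the times was not counted. The level averaged 11.26 ± 0.09 (SD, n = 2) at 10 h, against 10.06 ± 0.24 (SD, n = 3) in untreated cells, a log2 difference of 1.20 ± 0.20 (SE). The 2.30-fold rise had a 95% interval of 1.71 to 3.08. Array values are relative to total RNA, so more cells responding and more RNA per cell cannot be told apart.

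At 2 h DDIT4 averaged 10.96 ± 0.07 (SD, n = 3), a log2 difference from 0 h of 0.90 ± 0.18 (SE) or 1.87-fold (95% interval 1.44 to 2.43). That difference was 75.1% of the difference at 10 h and was not called. It was called in 1 of 18 alternatives, the one with trended robust variances. A difference of 0.30 ± 0.20 (SE) on the log2 scale separated 10 h from 2 h, with a 95% interval of −0.13 to 0.72. The suffix of this probe set marks probes that can match more than 1 transcript, and DDIT4 had no other probe set on the array. All probe sets of SESN1 and SESN2 have the same suffix, as do the brighter ones of TSC2 and NPRL2 and a dim one of SESN3.

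CASTOR1 was measured by 2 probe sets, 1 with that suffix and 1 without it. Probe set 233528_s_at had 6.43, 6.57 and 6.30 at 0 h, 6.87, 7.09 and 6.98 at 2 h, and 7.71 and 8.04 at 10 h. Probe set 226613_at had 6.27, 5.82 and 6.20 at 0 h, 6.44, 6.65 and 6.40 at 2 h, and 7.07 and 7.54 at 10 h. On both, every array at 10 h lay above every array at 2 h, and every array at 2 h above every array at 0 h. Taken singly, the first order held in 5% of all probe sets and the second in 2.77%. The share with both was not counted.

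The first CASTOR1 probe set averaged 7.88 ± 0.23 (SD, n = 2) at 10 h, against 6.43 ± 0.14 (SD, n = 3) in untreated cells, a log2 difference of 1.44 ± 0.20 (SE) with a 95% interval for the fold of 2.03 to 3.63. The second averaged 7.30 ± 0.34 (SD, n = 2) at 10 h, against 6.10 ± 0.24 (SD, n = 3) in untreated cells, a difference of 1.21 ± 0.22 (SE) with an interval for the fold of 1.68 to 3.18. At 2 h the differences from 0 h were 0.54 ± 0.18 and 0.40 ± 0.19 (SE), which were 37.7% and 33.2% of those at 10 h. Between 10 h and 2 h they were 0.90 ± 0.20 and 0.81 ± 0.22 (SE). Whether CASTOR1 and DDIT4 differ in their course was not tested.

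**Figure D2:**
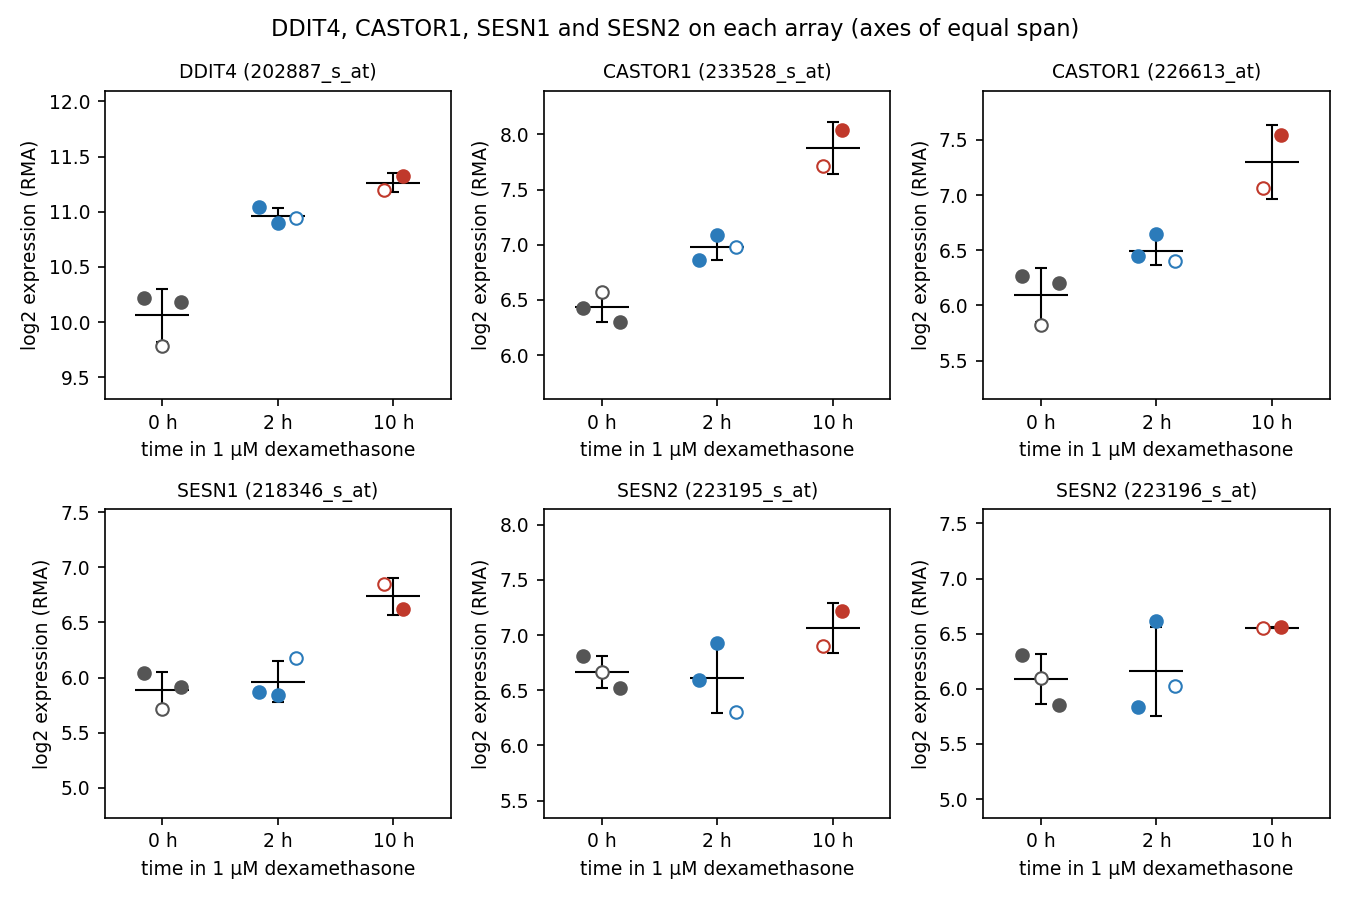
Log2 expression (y axis, of equal span in each panel) of the 6 probe sets of DDIT4, CASTOR1, SESN1 and SESN2 on each array at 0, 2 and 10 h (x axis); bars give the mean and SD of a time and open points the 3 arrays with the lowest medians. DDIT4 averages 10.06, 10.96 and 11.26 at 0, 2 and 10 h, and SESN1 averages 5.89, 5.96 and 6.74.

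SESN1, a p53-inducible sestrin, had 6.04, 5.72 and 5.91 at 0 h, 5.87, 5.84 and 6.18 at 2 h, and 6.85 and 6.62 at 10 h on its only probe set, 218346_s_at. Both arrays at 10 h lay above all 6 earlier arrays, which overlapped between 0 h and 2 h. The mean was 6.74 ± 0.17 (SD, n = 2) at 10 h, against 5.89 ± 0.16 (SD, n = 3) in untreated cells, a log2 difference of 0.85 ± 0.20 (SE) with a 95% interval of 0.42 to 1.28. The difference was 0.07 ± 0.18 (SE) at 2 h and 0.77 ± 0.20 (SE) between 10 h and 2 h. SESN1 was not called in any of 18 alternatives at 10 h, where its difference lay between 0.64 and 0.96.

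SESN2, induced by amino acid and endoplasmic reticulum stress, was not called on either of its probe sets. Probe set 223195_s_at had 6.81, 6.67 and 6.52 at 0 h, 6.59, 6.93 and 6.30 at 2 h, and 6.90 and 7.22 at 10 h. Probe set 223196_s_at had 6.31, 6.10 and 5.85 at 0 h, 5.83, 6.61 and 6.03 at 2 h, and 6.55 and 6.56 at 10 h. The arrays at 10 h lay above those at 0 h, and on both probe sets 2 h replicate 2 lay above at least 1 array of 10 h.

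The log2 differences of SESN2 at 10 h were 0.40 ± 0.22 and 0.47 ± 0.24 (SE), and their 95% intervals of −0.07 to 0.86 and −0.04 to 0.97 include 0. At 2 h they were −0.06 ± 0.20 and 0.07 ± 0.21 (SE). For 6 of the 21 probe sets, those of DDIT4, CASTOR1, SESN1 and SESN2, the arrays of 10 h were all above those of 0 h, an arrangement that 5.92% of all probe sets showed. In 2 of the 21, 1 each of SESN3 and TSC2 and both with means below the negative controls, they were all below, as in 6.19% of all probe sets. At 2 h, DDIT4 and both CASTOR1 probe sets were all above 0 h, as in 2.77% of all probe sets, and 1 dim SESN3 probe set was all below, as in 1.37%. Between 10 h and 2 h, DDIT4, both CASTOR1 probe sets, SESN1 and 1 dim SESN3 probe set were all above, as in 5% of all probe sets, and another dim SESN3 probe set was all below, as in 8.35%.

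SESN3, a FOXO-induced sestrin, had 7 probe sets, and the means of 6 lay between 2.44 and 3.57, below the highest value of 4.73 among 27 Bacillus negative control probe sets. The brightest, 225123_at, had 5.32, 5.24 and 5.02 at 0 h, 5.01, 5.15 and 4.76 at 2 h, and 5.44 and 5.02 at 10 h. The times overlapped, with log2 differences from 0 h of −0.22 ± 0.19 (SE) at 2 h and 0.04 ± 0.21 (SE) at 10 h. The other 6 had differences at 10 h from −0.42 to 0.19, on values within the range of the negative controls.

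The TSC genes were measured well above the negative controls on 1 probe set each. TSC1, which stabilises the complex, had 7.36, 6.90 and 7.43 at 0 h, 7.42, 7.45 and 7.09 at 2 h, and 7.33 and 7.44 at 10 h, with a log2 difference of 0.15 ± 0.21 (SE) at 10 h. TSC2, which carries the activity towards RHEB, had 7.08, 7.30 and 6.49 at 0 h, 6.93, 7.37 and 6.90 at 2 h, and 7.35 and 7.14 at 10 h, with 0.29 ± 0.25 (SE). In both, the arrays of the 3 times overlapped. The 95% intervals at 10 h reached from −0.31 to 0.61 for TSC1 and from −0.23 to 0.81 for TSC2. The other TSC2 probe set, at a mean of 2.91, had −0.20 ± 0.21 (SE).

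Neither GATOR1 subunit on the list was called. NPRL2 on its brighter probe set, 203246_s_at, had 9.11, 9.06 and 9.30 at 0 h, 9.20, 9.21 and 9.03 at 2 h, and 8.82 and 9.21 at 10 h. DEPDC5 had 5.55, 5.44 and 6.01 at 0 h, 5.83, 5.92 and 5.79 at 2 h, and 5.48 and 5.86 at 10 h. All arrays of NPRL2 lay within a narrow band, and those of DEPDC5 spread most at 0 h. The log2 differences at 10 h were −0.14 ± 0.20 and 0.01 ± 0.22 (SE), with 95% intervals of −0.56 to 0.28 and −0.45 to 0.47. The dimmer NPRL2 probe set had −0.24 ± 0.22 (SE).

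DEPTOR was not measured above background. Its probe sets had means of 3.97 and 2.58, and no array exceeded 4.49, below the highest negative control value. Their differences at 10 h were −0.20 ± 0.24 and −0.09 ± 0.21 (SE), on values within the range of the negative controls.

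**Figure D3:**
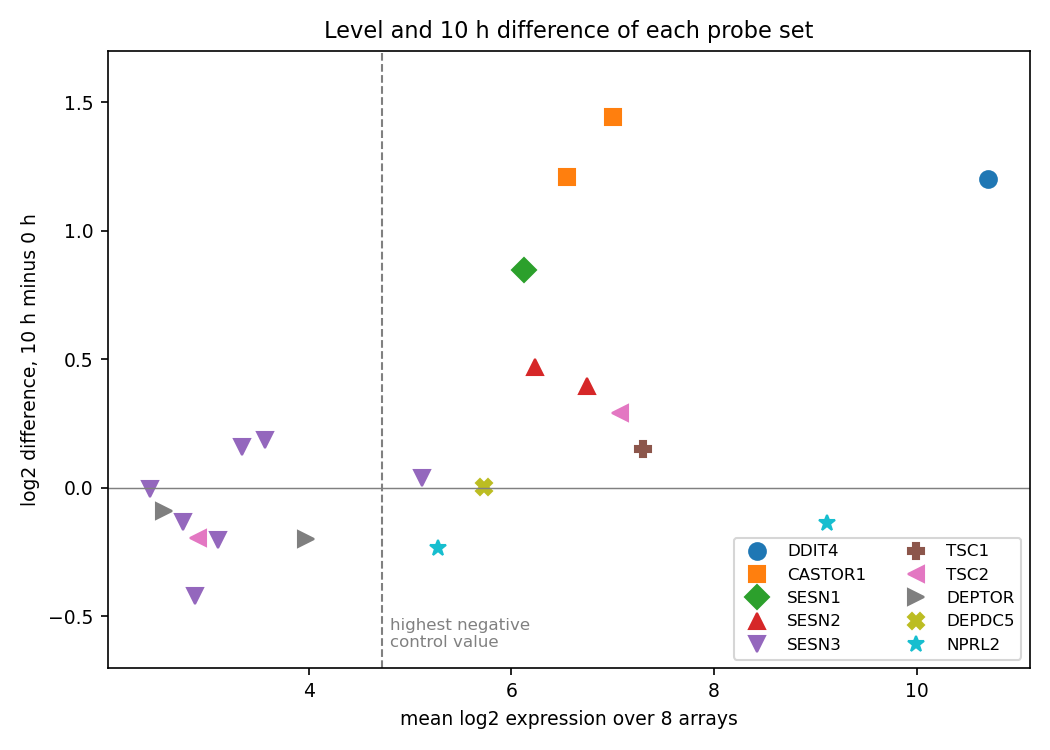
Mean log2 expression over 8 arrays (x axis) against the log2 difference at 10 h minus 0 h (y axis) for the 21 probe sets, with a symbol for each gene; the dashed line is the highest negative control value of 4.73. To its right lie 12 probe sets of 9 genes, among them those of DDIT4, CASTOR1, SESN1 and SESN2, and to its left 6 of SESN3, 2 of DEPTOR and 1 of TSC2.

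Of the 21 probe sets, 12 from 9 genes had a mean above the negative controls. The median log2 difference at 10 h was 0.04 over all 21, against −0.03 over all 54613 probe sets, and 12 of the 21 were positive. By the brightest probe set of each gene, 8827 of all 19775 genes were positive. That is a count of genes, so it is not on the same basis as the 12 of 21 probe sets. At 2 h the medians were 0.06 over the 21 and 0.01 over all. For the 12 above the negative controls the median at 10 h was 0.34, with 10 positive. Over all 28622 probe sets above those controls the median was −0.01, and how many of them were positive was not counted. The members were chosen partly from these arrays, so these values are a description.

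The arrays fell into a set of 3 with medians from 4.68 to 4.77 (0 h replicate 2, 2 h replicate 3 and 10 h replicate 1) and a set of 5 with medians from 4.91 to 5.01. What lies behind this split was not tested. Fits with a block for it, or without the set of 3, are given below. Differences within each set are given here for the genes that stood out. DDIT4 differed by 1.42 at 10 h and 1.16 at 2 h in the set of 3, and by 1.12 and 0.77 in the set of 5. CASTOR1 on 233528_s_at differed at 10 h by 1.14 in the set of 3 and 1.68 in the set of 5, and on 226613_at by 1.25 and 1.31. SESN1 differed at 10 h by 1.14 and 0.64, and at 2 h by 0.46 and −0.12. Each set holds 1 array at 10 h, and since no arrays of 10 h and 0 h overlapped for these genes, the direction at 10 h within a set was fixed.

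The calls depended on both arrays at 10 h. Without 10 h replicate 1, 1 probe set was called, CASTOR1 233528_s_at, and without 10 h replicate 2 none was called. None was called without the set of 3 either, where the differences were 1.12 for DDIT4 and 1.68 and 1.31 for CASTOR1. With a block for that set all 3 probe sets were called, at 1.23 for DDIT4 and 1.45 and 1.26 for CASTOR1. CASTOR1 226613_at lost its call also without 0 h replicate 1 or 0 h replicate 2. With replicate number as a block 1 probe set was called, CASTOR1 233528_s_at. The labels used here do not say whether the numbers pair arrays across times. DDIT4 stayed between 1.06 and 1.28 in 18 alternatives.

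Markers of the T lineage were present: 11 of 12 listed genes lay above the negative controls, CD2 being the exception, and none was called at any time. Of 6 measured B-lineage markers 4 lay above, of 7 myeloid 2, of 3 erythroid 1 and of 7 epithelial and stromal 6, and none of them was called. Over all genes, 13068 of 19775 lay above, so this cut-off alone says little about lineage.

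Other genes of the pathway were examined as 8 lists with 181 distinct genes, of which 168 had a probe set with 1 symbol. At 10 h, 6 of these genes had at least 1 called probe set, all higher, which is 3.57% where 0.379% of all 19775 genes did. At 2 h none was called in limma, where 0.0202% of all genes were, and 6 had a probe set at an unadjusted p below 0.05, as 2.06% of all genes did. Of the 6 called genes, IL7R, BCL2L11, TXNIP, KLF2 and TP53INP1 were known from earlier results of these arrays, so the count is no independent evidence.

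Of the kinase complexes themselves, none of 14 subunits and partners of mTORC1 and mTORC2 was called, with a median log2 difference of 0.01 at 10 h, against −0.02 over all genes. By the brightest probe set, their widest values were 0.35 ± 0.22 (SE) for MAPKAP1, a subunit of mTORC2, and −0.40 ± 0.21 (SE) for PRR5L. PRR5L binds mTORC2 and lay below the negative controls. Other probe sets had 0.28, 0.33 and −0.09 for MAPKAP1 and −0.06, −0.16 and −0.04 for PRR5L. None of 24 measured genes of the amino acid sensing branch was called, and their median was −0.08. The widest were WDR24, a GATOR2 subunit, at 0.46 ± 0.26 (SE) and LAMTOR4, a Ragulator subunit, at 0.38 ± 0.21 (SE), both at an adjusted p of 1 in limma. With 0.379% of all genes called at 10 h, the absence of calls in lists of 14 and 24 genes says little.

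Of 29 genes of the PI3K, AKT and AMPK branch upstream, 1 was called at 10 h, where 0.379% of all genes were. It was PIK3IP1, a membrane protein that inhibits PI3K. On 221756_at it had 6.64, 6.27 and 7.59 at 0 h, 7.79, 7.71 and 7.14 at 2 h, and 9.09 and 9.33 at 10 h. The arrays at 10 h lay above all others, while those at 0 h spread widely and overlapped with 2 h. The mean was 9.21 ± 0.17 (SD, n = 2) at 10 h, against 6.83 ± 0.68 (SD, n = 3) in untreated cells, a log2 difference of 2.38 ± 0.31 (SE) or 5.20-fold (limma adjusted p = 0.00168). A second probe set, 221757_at, rose by 1.62 ± 0.22 (SE; limma adjusted p = 0.00261), and the third, at a mean of 4.49 below the negative controls, had 0.63 ± 0.25 (SE). The median of the branch was −0.04.

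None of 23 measured downstream effectors was called, with a median of 0.04. On their brightest probe sets, RPS6KB1, the S6 kinase that mTORC1 phosphorylates, had −0.49 ± 0.21 (SE) and EEF2K, which slows translation elongation, −0.39 ± 0.21 (SE). Both were at a limma adjusted p of 1. The other probe sets had −0.39 ± 0.26 and −0.16 ± 0.27 (SE) for RPS6KB1 and −0.05 ± 0.20 (SE) for EEF2K. As 0.379% of all genes were called at 10 h, a list this short can easily hold none.

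**Figure D4:**
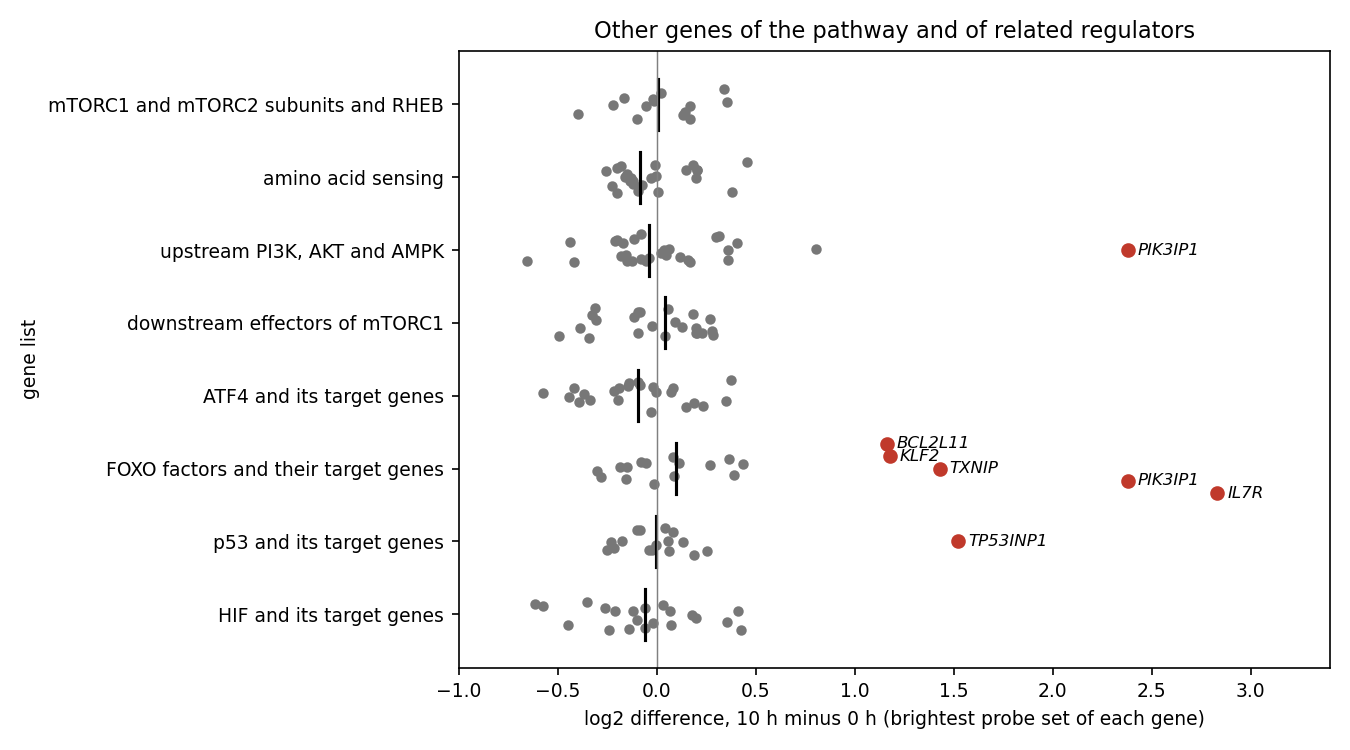
Log2 difference at 10 h minus 0 h (x axis) on the brightest probe set of each gene in 8 lists (rows); black bars are list medians, and red points with names are genes with at least 1 called probe set. List medians lie between −0.09 and 0.10, and the red points are IL7R, PIK3IP1 (in 2 lists), TP53INP1, TXNIP, KLF2 and BCL2L11.

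Target genes of factors known to induce DDIT4 or sestrins were also counted. ATF4, a factor of the amino acid stress response, and its targets held no called gene among 23, with a median of −0.09 at 10 h and 7 positive values. The widest were MTHFD2, a mitochondrial folate enzyme, at −0.57 ± 0.19 (SE; limma adjusted p = 0.971) and SLC7A11, a cystine transporter, at −0.44 ± 0.29 (SE; limma adjusted p = 1). HIF and its targets held none among 21, with a median of −0.06. MXI1, a MYC antagonist, had −0.61 ± 0.21 (SE; limma adjusted p = 0.988) and PDK1, a mitochondrial kinase, −0.58 ± 0.22 (SE; limma adjusted p = 1). Less bright probe sets had −0.59 for MTHFD2, −0.25 and −0.35 for SLC7A11, and −0.22 and −0.19 for PDK1. The last of SLC7A11 and of PDK1 lay below the negative controls. Only 0.379% of all genes were called at 10 h, so finding none in lists of 23 and 21 genes says little about either factor.

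Among 20 measured genes of the FOXO group, 5 had a called probe set at 10 h, all higher, where 0.379% of all genes had one in either direction. Of these 5, IL7R, BCL2L11, TXNIP and KLF2 were known from earlier results of these arrays. The count is therefore no independent evidence, and their differences are given without p-values. The brightest probe set was positive for 12 of the 20, with a median of 0.10. FOXO factors are transcription factors that AKT keeps out of the nucleus. IL7R, the interleukin 7 receptor chain, rose by 3.43 ± 0.20 (SE) on 226218_at and by 2.83 ± 0.25 (SE) on its brightest probe set, 205798_at. BCL2L11, the pro-apoptotic protein BIM, rose by 2.39 ± 0.24 (SE) on 225606_at. On its brightest probe set, 1553096_s_at, BCL2L11 rose by 1.16 ± 0.22 (SE). On 1553088_a_at, above the negative controls, it had 0.14 ± 0.20 (SE) and was not called. TXNIP, an inhibitor of thioredoxin and glucose uptake, rose by 1.43 ± 0.23 (SE) on 201010_s_at. PIK3IP1 is in this group as well. The other called gene was KLF2, a quiescence-associated factor named here after its value was seen, at 1.18 ± 0.23 (SE) on 219371_s_at. Its other probe set, 226646_at, below the negative controls, had −0.22 ± 0.32 (SE).

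Of 17 measured genes of the p53 group, 1 was called at 10 h, where 0.379% of all genes were. It was TP53INP1, a p53-induced stress protein known from earlier results of these arrays. It had 1.52 ± 0.30 (SE) on 225912_at, and its other probe sets, both below the negative controls, had 0.04 and 0.14. The median of the group was −0.0034. Between 10 h and 2 h, the genes called in the 8 lists were IL7R, BCL2L11 and TXNIP, 3 of 168 where 0.167% of all genes were, and PIK3IP1 had 1.67 ± 0.31 (SE; limma adjusted p = 0.0674). The 3 called genes were among those known from earlier results, so this count is no independent evidence either. IL7R and BCL2L11 were called at 10 h in each alternative, and PIK3IP1 in each but the one without the set of 3 arrays. TXNIP lost its call in that one and without 0 h replicate 2 or 10 h replicate 2. KLF2 and TP53INP1 lost theirs in that one, with the replicate block, with the mean probe set of each gene, and without any single array of 0 h or 10 h. KLF2 lost it also without 2 h replicate 1, and TP53INP1 without 2 h replicate 2.

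The genes whose course was most like that of a member were sought among 19765 other genes, by the root-mean-square difference over 8 arrays of log2 values after subtraction of each untreated mean. For DDIT4 the nearest were GRAMD2B at 0.23, YOD1, a deubiquitinase, at 0.25, and NR3C1, the glucocorticoid receptor, at 0.25, where the median gene was at 0.84. For CASTOR1 they were TUBA4A, an alpha-tubulin, at 0.14, SMAP2 at 0.14 and WFS1, an endoplasmic reticulum membrane protein, at 0.25, with the median gene again at 0.84. TUBA4A, SMAP2 and WFS1 were called at 10 h, with differences of 1.49, 1.30 and 1.19, and so was NR3C1 at 1.49. GRAMD2B and YOD1 were not called, at 1.13 and 1.02.

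For SESN1 the nearest were ZNF81, TSNAX and KIR3DS1, at 0.13 to 0.14 with the median gene at 0.51, and none was called. For SESN2 they were ZNF776, PIGT and PIH1D2, at 0.09 with the median gene at 0.32. For SESN3 they were TAAR8, PDE12 and LOC338963, at 0.10 to 0.11 with the median gene at 0.31. PIH1D2 and TAAR8 lay below the negative controls. A gene whose values hardly differ between arrays is near many others by this measure.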

How the data were processed

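Expression was measured in 8 arrays of CCRF-CEM-C7-14 cells. The authors' deposited table holds 1 log2 value for each probe set and array, from RMA per the submitters' processing notes. RMA usually includes a quantile step, but array medians ran from 4.68 to 5.01, so the columns are not on 1 shared distribution.

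All 54613 probe sets that are no controls went into 1 limma 3.58.1 fit (R 4.3.3, 1 mean per time, eBayes, 5 residual degrees of freedom) and were called where the two-sided p after Benjamini-Hochberg adjustment was under 0.05. The 62 controls were left out. Intervals are 95% intervals of the moderated statistic. Symbols came from the platform annotation (41091 probe sets with 1 symbol, 19775 genes), and all 10 members matched RefSeq by Entrez identifier. No level was set against that of another probe set. The members and lists were chosen with earlier results of these data known.

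Besides the 10 members, the genes named are, for each list, up to 4 called genes with the smallest adjusted p at 10 h (with none called, the 2 widest differences on the brightest probe set) and the 3 genes nearest to DDIT4, CASTOR1 and each sestrin. The alternatives were a replicate block, leaving out each array, 2 scalings, trended robust variances, array weights, only the arrays compared, a filter on dim probe sets, the brightest or the mean probe set of each gene, and a block for or removal of the 3 arrays with the lowest medians. Correlations between the deviations of same-numbered arrays from their time means lay between −0.279 and 0.28. With 2 or 3 arrays at a time these deviations depend on each other, so they cannot settle whether the numbers pair arrays.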

Additional observations from a re-analysis of the deposited data

How the results depend on the processing

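At 10 h the 3 called probe sets of DDIT4 and CASTOR1 became 1 with a replicate block and 0 without the 3 arrays with the lowest medians, and ranged from 0 to 3 when single arrays were left out. At 2 h the count of 0 became 1, DDIT4, with trended robust variances. The 6 called genes of the pathway lists at 10 h became 2 without those 3 arrays and 3 to 6 without single arrays, and the 3 between 10 h and 2 h became 1 without the 3 arrays and 1 to 4 without single arrays. The replicate block changed no other of these counts by over 1.5 times. Leaving out arrays leaves fewer samples, and the cause of the other shifts was not tested. Over all probe sets, 137 were called at 10 h, 70 with the brightest and 72 with the mean probe set of each gene (fewer features tested), 215 with a block for the 3 arrays, 34 without them and 70 to 147 without single arrays. At 2 h, 5 were called, 10 with trended robust variances, 14 with array weights, 1 with mean probe sets and 1 without the 3 arrays. Between 10 h and 2 h, 59 were called, 92 with trended robust variances, 92 with the block for the 3 arrays, 33 with the brightest and 27 with the mean probe sets, 1 without the 3 arrays and 14 to 70 without single arrays. Of 1074 differences of the 21 probe sets over the alternatives, 1067 moved by less than the replicate SD and 7 by more, and no called difference changed sign. Several alternatives cannot move a difference, among them trended robust variances, the dim filter and leaving out an array of a time not compared. Part of the 1067 was therefore fixed beforehand. Dim probe sets limit what SESN3 and DEPTOR can show.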
